A study of Mus musculus with 6 samples.

Results

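The genes described here are the kinases at the core of the Hippo pathway, their adaptors and their nearest relatives, chosen by symbol, with earlier results of these data known. They are *Stk4* (which encodes MST1), *Stk3* (MST2), *Sav1*, *Lats1*, *Lats2*, *Mob1a*, *Mob1b*, *Mob3b*, *Stk38* (NDR1) and *Stk38l* (NDR2), 10 of the 24421 gene symbols in the table. The gene whose symbol is *Mst1* encodes macrophage stimulating 1, a secreted protein, and was not included. RNA was sequenced from cochlear explants of wild-type (WT) mice at postnatal day 2, and the groups were 3 control samples and 3 samples treated with neomycin, an aminoglycoside that kills sensory hair cells (HCs). Explants were kept in culture for 12 h, neomycin was given at 1 mM for 6 h, and culture went on for 5 days with EdU, a label of DNA synthesis, at 10 μM. The culture text in the labels is the same for all 6 samples, and the control group was taken from the treatment label. Each sample was a pool of 6 to 8 cochleae of no stated strain or sex, so p-values measure the spread between pools.

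Hippo signalling is a kinase relay. MST1 and MST2, held by the scaffold SAV1, phosphorylate LATS1 and LATS2 and the small adaptors MOB1A and MOB1B. MOB1 then binds LATS and helps to activate it, and active LATS phosphorylates YAP and TAZ, which keeps these coactivators out of the nucleus and away from TEAD transcription factors. NDR1 and NDR2 belong to the same kinase family as LATS and also bind MOB1, whereas MOB3B is a MOB protein outside the MOB1 pair. In the inner ear the pathway is known for its part in setting the size of the sensory epithelium. The relay depends on phosphorylation, which was not measured here; the values are levels of mRNA.

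The 10 genes form 4 paralog pairs plus *Sav1* and *Mob3b*, and the pairs were similar enough in sequence that shared reads had to be considered. Over aligned coding sequence, identity was 76.7% between *Stk4* and *Stk3*, 67.2% between *Lats2* and *Lats1*, 79.6% between *Mob1b* and *Mob1a*, and 75.6% between *Stk38l* and *Stk38*. The longest stretch without a difference is shown for each pair, because it bounds how long a read could be and still match both genes.
Stk4 and Stk3: tggattgttatggagtactgtgg
Lats2 and Lats1: tgtactttgtgatggactacat
Mob1b and Mob1a: attaagtgttctgcaccaaa
Stk38l and Stk38: acactggagaattttta
The longest of the 4 has 23 bases, and no run of 50 bases was shared by the transcripts of any pair. For the closest pair, the first 90 coding bases are shown with the 17 bases that differ in capitals.
Mob1a: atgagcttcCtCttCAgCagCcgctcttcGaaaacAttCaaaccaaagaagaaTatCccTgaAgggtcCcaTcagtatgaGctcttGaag
Mob1b: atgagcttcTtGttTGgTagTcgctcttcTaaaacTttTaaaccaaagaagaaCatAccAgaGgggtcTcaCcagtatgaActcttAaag
The differences are spread along this stretch, so that a read of 50 bases here holds letters of one gene only. Exons of another gene overlap those of 2 of the 10, and *Stk38l* shares sequence with others. *Sav1* shares 1336 exon bases, 25.4% of its exon length, with *Atl1* on the opposite strand, and *Lats2* shares 2955 bases, 42.4%, with the predicted gene *Gm49361* on its own strand. For *Stk38l*, 18.0% of the 50-base runs also occur in other genes, the predicted genes *Gm3555* and *Gm7451* among them. The counting setting for strand and for reads that match several genes is not given in the sources used here, so the levels of these 3 genes carry that uncertainty. The paper names the UCSC mm10 annotation for counting, whereas the overlaps and lengths here are from GENCODE M21. The gene models that were counted may therefore differ from those used for overlaps and lengths.

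After neomycin, 6 of the 10 genes were lower at an adjusted p under 0.05, edgeR's quasi-likelihood test with Benjamini-Hochberg adjustment over 15988 genes, and 0 were higher. The 6 were *Mob1a*, *Mob1b*, *Lats2*, *Stk4*, *Mob3b* and *Lats1*. Over all genes tested, 16.1% were lower and 12.9% were higher by the same rule, 29.0% in all; with total counts as the scaling these shares were 20.0% and 8.44%. Without neomycin replicate 2, 3 of the 10 genes were lower (*Mob1a*, *Mob1b* and *Lats2*), where 9.34% of all genes were. After correction for transcript length 4 were lower, but not the same 4. They were *Mob1a*, *Mob1b* and *Lats2*, plus *Stk4* with all exons as the length or *Sav1* with the longest transcript. Of all genes, 13.1% and 12.0% were lower at these lengths. Without this correction, *Mob1a*, *Mob1b* and *Lats2* were also over 1.5-fold lower, where 6.60% of all genes were and 2.24% were over 1.5-fold higher, 8.84% in all. *Lats2* fell short of 1.5-fold with DESeq2, limma-voom, DESeq2 size factors or upper quartile scaling (log2 fold change -0.584 to -0.569). At an adjusted p under 0.01, 4 of the 10 genes were lower, against 8.32% of all genes. The median log2 fold change of the 10 genes was -0.29, against -0.0041 over all genes. Of the 10 genes, 7 had 3 neomycin samples below all 3 control samples, which held for 22.5% of all genes, and 0 had the reverse, which held for 21.0%, 43.5% in all. *Stk3* was the gene of the 10 with a positive log2 fold change, 0.10, and it did not pass the test.

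**Figure D1:**
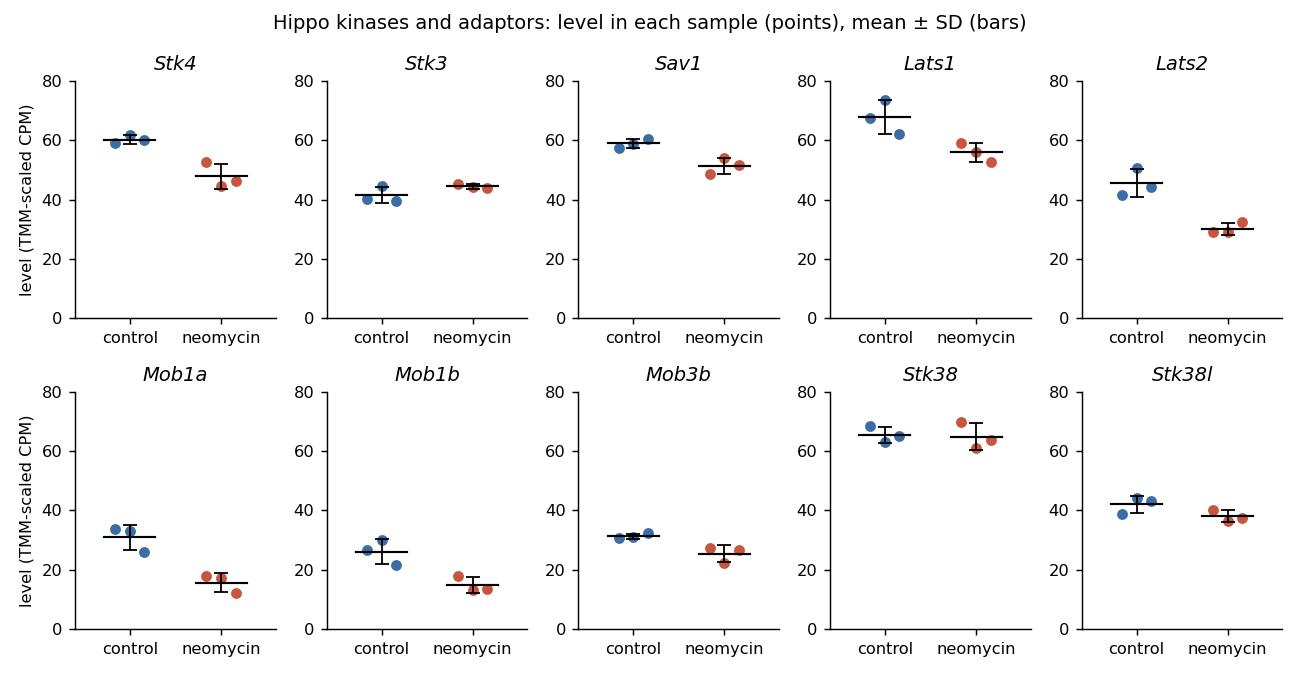
Level of each of the 10 genes in each sample, in CPM (counts brought to one library size by TMM), with points for samples and bars for the mean ± SD of the 3 control and 3 neomycin samples. The groups lie apart for 7 genes, among them *Mob1a* with means of 30.9 and 15.6 CPM, and overlap for *Stk3*, *Stk38* and *Stk38l*.

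A fall of long transcripts relative to short ones ran through the whole table and moved with these results. With all tested genes of known length split into 5 equal bins by the longest annotated transcript, the median log2 fold change was 0.25 in the shortest bin (up to 1874 bases) and -0.23 in the longest (from 5170 bases). *Stk4*, *Lats1*, *Lats2*, *Mob1b* and *Mob3b* were in the longest bin, *Mob1a* and *Stk38l* were in the next, whose median was -0.09, and *Stk3*, *Sav1* and *Stk38* were in the middle bin, whose median was near 0. The log2 fold changes were therefore also computed after this trend was removed from each sample, once with the length of all exons and once with that of the longest transcript, and are given gene by gene. HC markers moved with neomycin as well: 19 of 20 were lower, and their summed level went from 961–1094 CPM to 310–382 CPM. The part of HC loss in any change here was not tested, and in these explants fewer cells of a type and less RNA per cell cannot be told apart.

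Of MST1 and MST2, the kinases at the top of the relay, *Stk4* was lower after neomycin and *Stk3* did not pass the test. *Stk4* (mm10 chr2:164070322-164155524, plus strand) was at 59.0, 61.9 and 60.0 CPM in control and at 52.7, 44.7 and 46.4 CPM after neomycin. All 3 neomycin samples were below all 3 control samples. The means were 60.3 ± 1.47 and 47.9 ± 4.24 CPM (SD, n = 3 each), a log2 fold change of -0.33 (SE 0.08, adjusted p = 0.00799 by edgeR), so that it fell by 20.5%. The call was lost without neomycin replicate 2 (-0.28, adjusted p = 0.0568 by edgeR) and after correction by the longest transcript (-0.19, adjusted p = 0.0698), and was kept with all exons as the length.

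*Stk3* (chr15:34875496-35178921, minus strand) was at 40.2, 44.7 and 39.7 CPM in control and at 45.4, 44.3 and 43.8 CPM after neomycin. The second control sample lay among the neomycin samples and the other two lay below them. The means were 41.5 ± 2.76 and 44.5 ± 0.792 CPM, and the log2 fold change of 0.10 (SE 0.07) had an adjusted p of 0.335 by edgeR. 

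The ratio of the pair is free of library scaling, since both genes are read in the same sample. The log2 ratio of *Stk4* to *Stk3* counts was 0.55, 0.47 and 0.60 in control and 0.22, 0.01 and 0.08 after neomycin. *Stk4* thus had more counts than *Stk3* in all 6 samples, and every neomycin ratio was below every control ratio. The mean ratio went from 0.54 ± 0.06 to 0.10 ± 0.10, a difference of -0.44 (SE 0.09, adjusted p = 0.0356 by limma after the level of *Stk3* was subtracted from every gene). The exact two-sided permutation test gave p = 0.1, the smallest that 3 against 3 samples allow. The difference was no longer past the threshold in any of the 6 fits that left 1 sample out (adjusted p = 0.0591 to 0.136 by limma), nor with the replicate number as a block (adjusted p = 0.0631 by limma), nor after correction by the longest transcript, where it was -0.29 (adjusted p = 0.121). The difference did pass after correction by all exons (-0.45, adjusted p = 0.0238 by limma). It also passed in a fit on counts by edgeR with *Stk3* as the offset (-0.43, adjusted p = 0.00173). *Stk4* and *Stk3* differ in the length of the longest transcript, 5232 against 3294 bases, so the ratio is not free of the length trend.

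*Sav1* (chr12:69965012-69987002, minus strand), the scaffold that joins MST to LATS, was at 57.6, 58.9 and 60.3 CPM in control and at 48.7, 54.1 and 51.7 CPM after neomycin. The groups did not overlap, but the means of 58.9 ± 1.39 and 51.5 ± 2.69 CPM gave a log2 fold change of -0.20 (SE 0.07, adjusted p = 0.0530 by edgeR), which did not pass. *Atl1*, whose exons overlap those of *Sav1*, was at 5.10 ± 0.755 CPM in control and at 6.11 ± 0.402 CPM after neomycin, a difference of 0.26 on the log2 scale (adjusted p = 0.228 by edgeR).

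The genes of both LATS kinases, which phosphorylate YAP, were lower after neomycin. *Lats2* (chr14:57689662-57758388, minus strand) was at 41.5, 50.8 and 44.3 CPM in control and at 29.2, 28.9 and 32.6 CPM after neomycin. The highest neomycin sample was well below the lowest control sample. The means were 45.5 ± 4.74 and 30.2 ± 2.03 CPM, which was 1.51-fold lower (log2 fold change -0.59, SE 0.09, adjusted p = 0.000762 by edgeR), just past the 1.5-fold line. After the length correction with all exons it was -0.48 (adjusted p = 0.00215 by edgeR).

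*Lats1* (chr10:7681214-7716460, plus strand) was at 67.6, 73.8 and 62.1 CPM in control and at 59.2, 56.0 and 52.6 CPM after neomycin. The groups did not overlap, although the lowest control and the highest neomycin sample were near each other. The means were 67.8 ± 5.83 and 55.9 ± 3.28 CPM, with a log2 fold change of -0.28 (SE 0.08, adjusted p = 0.0225 by edgeR). This call depended on the length trend and on single samples. The log2 fold change was -0.16 (adjusted p = 0.110) with all exons as the length and -0.04 (adjusted p = 0.721) with the longest transcript, and the adjusted p was 0.115, 0.0832 and 0.0956 without control replicate 2, neomycin replicate 2 and neomycin replicate 3, all by edgeR.

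The log2 ratio of *Lats2* to *Lats1* was -0.70, -0.54 and -0.49 in control and -1.02, -0.95 and -0.69 after neomycin. *Lats2* had fewer counts than *Lats1* in all 6 samples, and the ratio of neomycin replicate 3 just reached the control range. The mean went from -0.58 ± 0.11 to -0.89 ± 0.17, and the difference of -0.31 (SE 0.13) did not pass (adjusted p = 0.110 by limma; exact two-sided permutation test, p = 0.2). A fit of the same ratio on counts, by edgeR with *Lats1* as the offset, gave -0.31 with an adjusted p of 0.0441, so that an unequal fall of the LATS pair held in one of the tools.

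**Figure D2:**
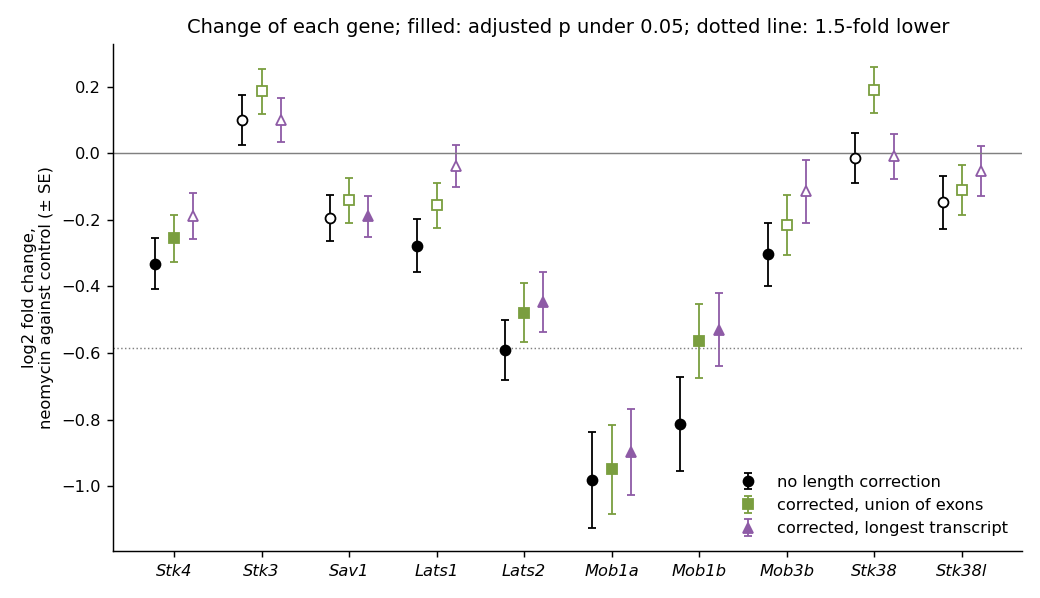
Log2 fold change of each gene in neomycin against control samples with its SE, without length correction (circles) and after removal of the length trend by all exons (squares) or the longest transcript (triangles); filled symbols have an adjusted p under 0.05 by edgeR. *Lats2*, *Mob1a* and *Mob1b* stayed filled and negative in all 3, whereas *Lats1* went from -0.28 to -0.04 with the longest transcript.

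The MOB1 adaptors, which bind and activate LATS and NDR kinases, showed the largest falls of the 10 genes. *Mob1a* (chr6:83326016-83343776, plus strand) was at 33.8, 32.9 and 25.9 CPM in control and at 17.8, 17.0 and 12.1 CPM after neomycin. The third replicate was the lowest in each group, and the groups were far apart. The means of 30.9 ± 4.34 and 15.6 ± 3.10 CPM were 1.97-fold apart (log2 fold change -0.98, SE 0.14, adjusted p = 0.000539 by edgeR). *Mob1a* was the one gene of the 10 that stayed over 1.5-fold lower after either length correction, and none of its 50-base runs occurred in another gene.

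*Mob1b* (chr5:88720855-88764220, plus strand) was at 26.7, 30.0 and 21.7 CPM in control and at 18.0, 13.1 and 13.5 CPM after neomycin. Again every neomycin sample was below every control sample. The means of 26.1 ± 4.18 and 14.9 ± 2.72 CPM were 1.76-fold apart (log2 fold change -0.81, SE 0.14, adjusted p = 0.00157 by edgeR). With the longest transcripts of the 10 genes, 8967 bases, *Mob1b* was among those most moved by the length correction, to -0.56 with all exons as the length, and it still passed (adjusted p = 0.00299 by edgeR).

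The MOB1 pair fell without a detectable difference between its members. The log2 ratio of *Mob1b* to *Mob1a* was -0.34, -0.14 and -0.26 in control and 0.02, -0.38 and 0.16 after neomycin. The neomycin ratios spread on both sides of the control ratios. The mean went from -0.24 ± 0.10 to -0.07 ± 0.28, and the difference of 0.18 had an SE of 0.27 (adjusted p = 0.532 by limma; exact two-sided permutation test, p = 0.4), which leaves room for unequal falls.

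*Mob3b* (chr4:34949074-35157484, minus strand), from the MOB3 branch of the family, was at 30.5, 31.1 and 32.2 CPM in control and at 27.2, 22.1 and 26.8 CPM after neomycin. The groups did not overlap, with neomycin replicate 2 the lowest. The means were 31.3 ± 0.843 and 25.3 ± 2.84 CPM, with a log2 fold change of -0.30 (SE 0.09, adjusted p = 0.0299 by edgeR). Without control replicate 2, control replicate 3 or neomycin replicate 2 the adjusted p was 0.0854, 0.0658 and 0.146, and after the length corrections the log2 fold change was -0.22 (adjusted p = 0.103) and -0.11 (adjusted p = 0.435), all by edgeR. Its paralogs outside the 10 genes, *Mob3a* and *Mob3c*, stood at -0.02 (adjusted p = 0.889 by edgeR) and -0.03 (adjusted p = 0.878) on the log2 scale.

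The NDR kinases, which share MOB1 with LATS, did not pass in either direction. *Stk38* (chr17:28970880-29007995, minus strand) was at 68.3, 63.0 and 65.1 CPM in control and at 69.9, 60.9 and 63.8 CPM after neomycin. The highest and the lowest of the 6 values were both in the neomycin group. The log2 fold change was -0.01 (SE 0.07, adjusted p = 0.905 by edgeR), and its sign turned with the length correction by all exons, to 0.19 (adjusted p = 0.0650).

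*Stk38l* (chr6:146724995-146778812, plus strand) was at 38.8, 44.3 and 43.1 CPM in control and at 40.2, 36.4 and 37.4 CPM after neomycin. Control replicate 1 lay within the neomycin range. The log2 fold change was -0.15 (SE 0.08, adjusted p = 0.184 by edgeR). The log2 ratio of *Stk38l* to *Stk38* was -0.82, -0.51 and -0.59 in control and -0.80, -0.74 and -0.77 after neomycin, and the difference of -0.13 (SE 0.11) did not pass (adjusted p = 0.444 by limma; exact two-sided permutation test, p = 0.4).

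**Figure D3:**
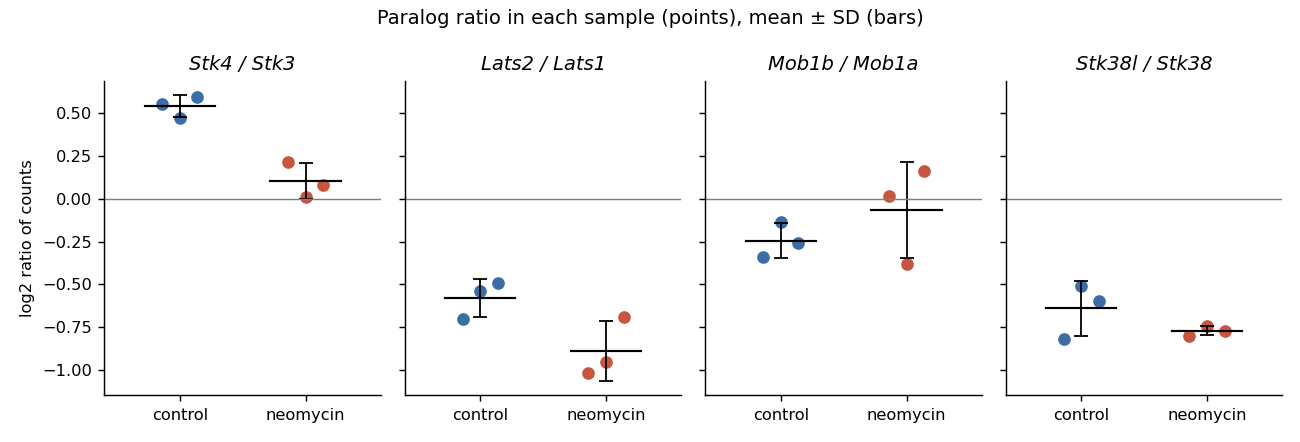
Log2 ratio of the counts of 2 paralogs within each sample for the 4 pairs, with points for samples and bars for the mean ± SD of 3 samples. The *Stk4* to *Stk3* ratios of the groups lie apart, with means of 0.54 in control and 0.10 after neomycin, and those of the other pairs overlap.

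Summed over each pair, the groups lay apart for the MST kinases, the LATS kinases and the MOB1 adaptors; these sums were not corrected for the length trend. The MOB1 sum was 60.5, 62.9 and 47.6 CPM in control and 35.8, 30.2 and 25.6 CPM after neomycin, and the LATS sum was 109, 125 and 106 CPM against 88.3, 85.0 and 85.2 CPM. Both sums were lower in every neomycin sample, by 0.90 and 0.39 on the log2 scale (exact two-sided permutation test, p = 0.1 each, the smallest possible). The log2 ratio of the LATS to the MOB1 sum was 0.85, 0.99 and 1.16 in control and 1.30, 1.49 and 1.74 after neomycin, so that it was higher in every neomycin sample, by 0.51 on average (exact two-sided permutation test, p = 0.1). The MST sum, at 99.2, 107 and 99.6 CPM against 98.1, 88.9 and 90.2 CPM, was also lower in every neomycin sample, by 0.14 on the log2 scale (exact two-sided permutation test, p = 0.1), and the NDR sums overlapped.

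The order of the paralogs' levels turned with the gene length used for the MST and NDR pairs. For *Lats2* the level also depended on how shared exons were counted. Per kb of all annotated exons, *Lats2* was below *Lats1* by 0.67 on the log2 scale over the 6 samples, and per kb of the longest transcript and of coding sequence by 0.26 and 0.62 (exact two-sided sign-flip permutation test, p = 0.03125 each, the smallest possible, lower in 6 of 6 samples). If no read over the exon bases shared with *Gm49361* was counted, the log2 level of *Lats2* per kb of exon would be shifted by -0.80, which is more than these differences, so the order of the LATS pair is not settled. *Mob1b* was below *Mob1a* by 1.8 per kb of exon and by 1.2 per kb of the longest transcript (exact two-sided sign-flip permutation test, p = 0.03125 each). Per kb of coding sequence *Mob1b* was below by 0.19 (exact two-sided sign-flip permutation test, p = 0.09375). *Stk4* was above *Stk3* by 0.38 per kb of exon and below it per kb of the longest transcript, and the order of *Stk38l* and *Stk38* also turned with the length. Across the 10 genes, *Mob1b* was the lowest per kb of exon, at 1.74 ± 0.278 CPM per kb in control and 0.989 ± 0.181 after neomycin, and *Sav1* was the highest, at 11.2 ± 0.264 and 9.78 ± 0.511. Between them came, in control, *Stk4*, *Lats1*, *Stk38l*, *Stk3*, *Lats2*, *Mob1a*, *Stk38* and *Mob3b*. Within this order the levels of *Stk3* (6.79 ± 0.451), *Lats2* (6.53 ± 0.679) and *Mob1a* (6.44 ± 0.905) differed by less than their SDs. Other lengths changed the order in control. Per kb of coding sequence *Lats2* was the lowest and *Mob1b* had rank 6, and per kb of the longest transcript *Stk38* was the highest.

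Promoters were read for 9 of the 10 genes from RefSeq (GRCm38.p6, windows of 300 bases around the annotated start), because *Lats2* is known as a target of YAP and TEAD. The core TEAD motif GGAATG, or CATTCC on the other strand, was present in 3 of the 10 promoters of these genes (*Lats2* has more than one), against 14.7% of 32851 promoters. The 30 bases around each match are shown with the motif in capitals.
Mob1a (chr6:83325818-83325847, plus strand): tggccagaatagCATTCCtttaggagaaga
Sav1 (chr12:69987091-69987120, minus strand): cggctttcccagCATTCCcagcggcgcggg
Lats2 (chr14:57746102-57746131, minus strand): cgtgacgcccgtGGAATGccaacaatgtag
Of these 3 genes, *Mob1a* and *Lats2* passed the test and *Sav1* did not. *Mob1b*, *Stk4*, *Lats1* and *Mob3b*, which also passed, had no match within their windows, nor did a second annotated start of *Lats2*. A match is a run of letters, and binding was not measured.

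In the rest of the pathway, counts at an adjusted p under 0.05 by edgeR are given beside those of the kinases and adaptors, with 16.1% of all genes lower and 12.9% higher. The list named scaffolds and activators upstream of LATS was not split by whether a protein raises or lowers LATS activity. Of its 21 genes, 12 were lower and 1 was higher, with a median log2 fold change of -0.30. The lowest was *Rassf5*, whose protein binds MST kinases, at 4.96 ± 0.325 CPM in control and 2.31 ± 0.316 CPM after neomycin (-1.10, adjusted p = 0.00116 by edgeR), and the one that rose was *Rassf6*, at 31.1 ± 3.56 and 39.0 ± 3.13 CPM (0.33, adjusted p = 0.0263 by edgeR). Of 15 kinases that act on LATS or NDR in parallel to MST, 6 were lower and 0 were higher, with a median of -0.24. The lowest of those that passed was *Stk26*, a relative of MST1 and MST2, at -0.42 (adjusted p = 0.0359 by edgeR).

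Of 6 further MOB genes and cofactors of NDR, 2 were lower and 0 were higher, and the median was -0.02. The lowest was *Fry*, a large protein that binds NDR kinases, at 18.3 ± 1.30 CPM in control and 9.21 ± 1.67 CPM after neomycin (-0.99, adjusted p = 0.000278 by edgeR). A list of inhibitors of MST or LATS held genes of the STRIPAK phosphatase complex, LIM proteins and MARK kinases (STRIPAK and LIM genes below). Of these 19 genes, 5 were lower and 0 were higher, with a median of -0.11. *Strip2*, a STRIPAK subunit, was the lowest, at 80.9 ± 3.35 and 19.7 ± 6.85 CPM (-2.04, adjusted p = 1.14e-05 by edgeR).

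The genes of the relay's substrates did not pass the test. On the log2 scale *Yap1* differed by -0.15 (adjusted p = 0.116 by edgeR) and *Wwtr1*, which encodes TAZ, by -0.12 (adjusted p = 0.198), although both had 3 neomycin samples below 3 control samples. Of 8 nuclear effectors tested, 1 was lower, *Vgll4*, which competes with YAP for TEAD (-0.52, adjusted p = 0.00179 by edgeR), and 0 were higher. Genes known as YAP targets included *Lats2* and some members of the scaffold and LIM lists, so these counts are not separate. Of the 22 targets, 11 were lower and 2 were higher, with a median of -0.35. Their lowest was *Ankrd1* at -1.16 (adjusted p = 0.000878 by edgeR) and their highest was *Gadd45a* at 0.35 (adjusted p = 0.0429 by edgeR). The length trend moved several of these counts. With all exons and with the longest transcript as the length, scaffolds and activators had 7 and 7 lower genes and 4 and 3 higher ones, parallel kinases had 2 and 3 lower, STRIPAK and LIM genes had 2 and 3 lower, and further MOB genes and cofactors had 1 and 1 lower. Single samples moved them too, and also moved the share of all genes that were lower. That share was 11.3% without control replicate 1 and 9.30% without control replicate 2. It was 9.34% without neomycin replicate 2 and 11.1% without neomycin replicate 3. The 6 lower parallel kinases became 2 without control replicate 2 or neomycin replicate 2 and 3 without neomycin replicate 3, and the 5 lower STRIPAK and LIM genes became 2 without control replicate 1, control replicate 2, neomycin replicate 2 or neomycin replicate 3. The 2 lower MOB genes and cofactors became 1 when any one of those 4 samples was left out, and the 11 lower YAP targets became 7 without control replicate 2.

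**Figure D4:**
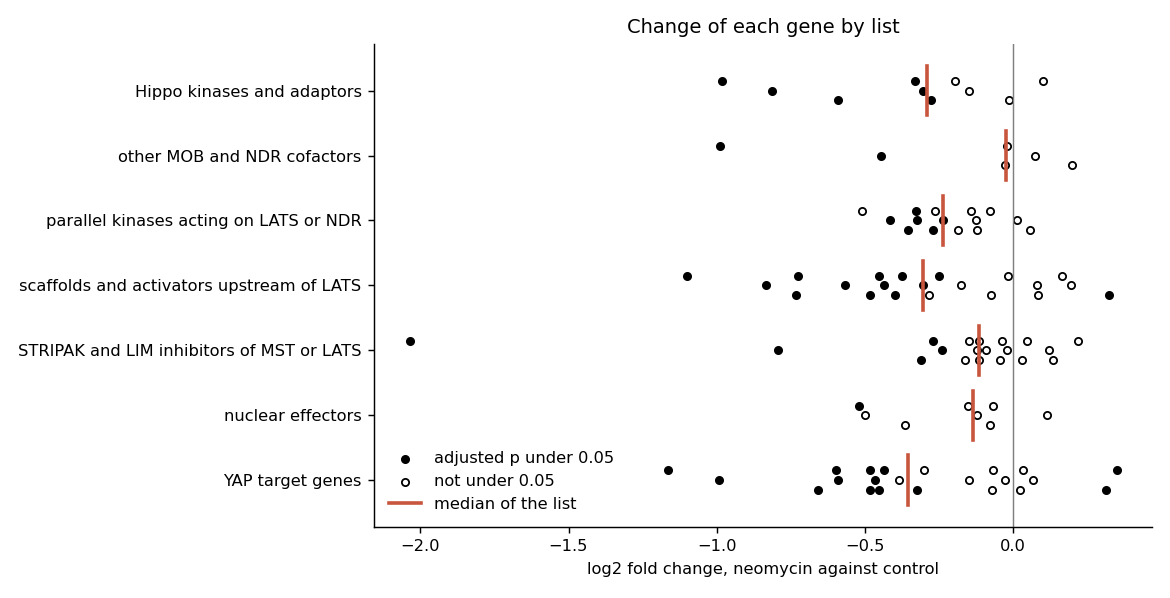
Log2 fold change of each gene in neomycin against control samples by list, with filled points for an adjusted p under 0.05 by edgeR and a bar for the median of the list. The medians lie between -0.35 for YAP target genes and -0.02 for other MOB genes and NDR cofactors, and all 6 filled points of the kinases and adaptors are negative.

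Markers of other cells that an explant holds were read beside these values. At an adjusted p under 0.05 by edgeR, 16.1% of all genes were lower and 12.9% were higher. Supporting cell (SC) markers had 5 of 17 genes lower and 4 higher, and their summed level went from 6298–7539 CPM to 7963–11459 CPM. Macrophage markers had 7 of 12 higher and 0 lower, from 101–132 to 146–181 CPM. Endothelial markers had 7 of 10 lower and 0 higher, and all 7 were over 1.5-fold lower (6.60% of all genes were). Their median log2 fold change was -1.94, against -2.00 for HC markers, although their summed levels overlapped, at 312–354 and 298–351 CPM. Cell division genes had 5 of 10 lower and 0 higher. Neuronal markers had 4 of 14 lower and 2 higher, Schwann cell and glial markers 2 of 12 lower and 0 higher, and mesenchymal markers 3 of 12 lower and 3 higher. Erythroid genes were at 0 in every sample for 4 of 5. The part of these cells in the changes of the 10 genes was not tested.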

How the data were processed

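The authors called bases with CASAVA 1.8, trimmed reads with Trimmomatic 0.23 and aligned them to mm10 with HISAT2. Reads were counted with HTSeq by the UCSC mm10 annotation and deposited as raw counts per gene symbol. Total counts per sample were 50471116 to 66068108, and the 10 genes had 649 to 4714 counts per sample, a Poisson error of at most 3.93%. The 10 genes, the pathway lists and the marker lists were chosen with earlier results of these data known. All 10 genes and the 4 paralog pairs are described; of other lists, the extreme genes that passed are named, plus *Yap1*, *Wwtr1*, *Mob3a*, *Mob3c* and the overlapping *Atl1*. Counts were scaled by TMM, filtered with filterByExpr and tested with edgeR 4.0.16 (quasi-likelihood F test, Benjamini-Hochberg adjustment), which was tested on simulated data. SEs are the log2 fold change divided by the root of F. Paralog ratios (counts plus 0.5) were tested with limma 3.58.1 over all genes and by exact permutation. The study's tool, DESeq2 (here 1.42.0), limma-voom, other scalings, no filter, a replicate block, length correction (lowess, span 0.3) and samples left out were alternatives; the longest-transcript length, and the length-corrected paralog ratios, were added after the data were examined. Gene positions and lengths are from GENCODE M21 (GRCm38), and 99.3% of tested genes had a length.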

Additional observations from a re-analysis of the deposited data

How the results depend on the processing

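*Lats2*, *Mob1a* and *Mob1b* passed as lower under every alternative run. With DESeq2, limma-voom, DESeq2 size factors or upper quartile scaling, *Lats2* was under 1.5-fold, which left *Mob1a* and *Mob1b* over it. The 6 lower genes became 3 to 6 with 1 sample left out, 3 without neomycin replicate 2, while the share of all genes that were lower ran from 9.30% to 17.1%, and the 3 over 1.5-fold became 2 to 3. After correction by either length, with or without the replicate block, 1 gene (*Mob1a*) was over 1.5-fold lower. Of all genes, 6.60% were over 1.5-fold lower with all samples and no length correction. That share was not counted at the other settings, so the counts over 1.5-fold there have no share to be set against. Same-numbered samples deviated together in correlations of 0.165, 0.0264 and 0.0949, against -0.129 to 0.0325 for samples of unlike number. Control replicate 2 correlated best with neomycin replicate 3 (0.0325), and every other sample with its own number. The labels do not state pairs, so the replicate number was used as a block in alternatives only. With the block 6014 of all genes passed, against 4629 without it. Exon length correction with the replicate block gave 2 higher genes, *Stk3* (0.19) and *Stk38* (0.19), where 13.7% of all genes were higher. *Stk38*, not called, turned to 0.0068 with upper quartile scaling and to 0.19 with exon length correction, and ran from -0.071 to 0.029 with 1 sample left out. *Sav1* passed with total counts only (-0.26, adjusted p = 0.0139), the block (-0.20, 0.0223) and the longest transcript (-0.19, 0.0456, all by edgeR).

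The *Stk4* to *Stk3* difference was -0.44 with the block (adjusted p = 0.0631 by limma) and -0.29 with longest transcript correction. It was -0.45 with exon length correction (adjusted p = 0.0238 by limma) and -0.49 to -0.39 with 1 sample left out. That of *Lats2* to *Lats1* was -0.31 by edgeR and -0.41 to -0.25 with 1 sample left out. The level difference of *Stk4* over *Stk3* was -0.35 per kb of longest transcript, that of *Mob1b* over *Mob1a* -0.19 per kb of coding sequence, and that of *Stk38l* over *Stk38*, 0.54 per kb of exon, was -1.15 and -0.72.

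With exon and longest transcript length correction, 13.1% and 12.0% of all genes were lower and 10.4% and 9.10% higher. Lower genes at these settings were 1 and 1 of other MOB genes and NDR cofactors, 2 and 3 of parallel kinases, 7 and 7 of scaffolds, and 2 and 3 of STRIPAK and LIM genes. Higher genes were 1 and 1, 0 and 0, 4 and 3, and 1 and 2; for YAP targets 1 and 1, and for nuclear effectors 1 with the longest transcript. The block gave 2 lower nuclear effectors and 1 higher gene each of other MOB and STRIPAK genes. With 1 sample left out, lower genes were 1 to 2, 2 to 7, 8 to 13, 2 to 6 and, for YAP targets, 7 to 11, and higher genes were 0 to 1 or, for YAP targets, 1 to 2, where 6.22% to 15.9% of all genes were higher. With 3 samples a group, small differences between paralogs could not be resolved. The causes of these moves were not tested.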
